A study of Mus musculus with 28 samples.

Results

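Cytosolic DNA sensing through STING was described here by 7 genes: the sensor Cgas, the adaptor Sting1 (listed as Tmem173 in older annotation), the kinases Tbk1 and Ikbke, the enzymes Trex1 and Samhd1, and the nucleic acid sensor Zbp1. They were chosen by name, with earlier results of these data known, and each was matched by symbol to 1 Ensembl gene. All 7 were among the 56951 genes of the series, 6 of them in the table of the first experiment and 7 in that of the second, and 6 passed the filter on low counts in each. Messenger RNA was sequenced from primary macrophages grown for 6 days from the bone marrow of mice of both sexes, 2 to 4 months old, with L929 cell-conditioned medium and then kept for 24 h without it. The first experiment compared WT (C57BL/6), Irgm1-KO (Irgm1-/-) and Irgm_IFNAR-KO (IFNAR/Irgm1-/-) cells, with 12 libraries and no added treatment named. The second crossed genotype (WT, Irgm1KO) with treatment (control, 50 µM fenofibrate), with 16 libraries. Each of the 7 groups held 4 libraries. Both mutant lines were backcrossed to C57BL/6, no cell-type-specific driver is named for either mutation, and the double mutant had no counterpart that lacked the receptor alone. Neither the length of the fenofibrate exposure nor what control cells received is given in the labels. Irgm1 is an interferon-inducible GTPase of autophagy and lysosome biology, IFNAR is the receptor of type I interferons, and fenofibrate, a drug given to lower blood lipids, is an agonist of PPAR alpha.

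In this pathway cGAS binds double-stranded DNA in the cytosol and makes the cyclic dinucleotide cGAMP. cGAMP binds STING in the endoplasmic reticulum, STING travels to the Golgi and recruits the kinase TBK1 or its relative IKK epsilon, and the kinase phosphorylates IRF3, which turns on the interferon beta gene. TREX1 and SAMHD1 limit the nucleic acid that can trigger sensors, and several genes of the pathway are themselves induced by type I interferon in macrophages.

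Libraries of the first experiment held 48.7 to 70.5 M counts (M, mega) and those of the second held 82.4 to 120.8 M. Irgm1 itself stood at 1189 to 1352 CPM (read counts per M counts of the scaled library) in WT, 628 to 839 in Irgm1-KO and 641 to 786 in Irgm_IFNAR-KO, and at 1470 to 1673 in the WT and 991 to 1144 in the Irgm1KO libraries of the second experiment. It was thus lower in every mutant library but far from 0. Ifnar1 stood at 128 to 141 CPM in WT, 112 to 127 in Irgm1-KO and 107.8 to 114 in 3 Irgm_IFNAR-KO libraries, with the third replicate at 53.1, and its fall from Irgm1-KO missed the threshold (adjusted p 0.178). Which exons the alleles delete is not stated in the labels, so whole-gene counts do not check the receptor label. All 8 macrophage markers looked for were measured. Their summed level was 21200 to 41500 CPM in WT, 9430 to 14600 in Irgm1-KO and 28700 to 40000 in Irgm_IFNAR-KO, then 22100 to 30700 in WT_control, 13900 to 22500 in WT_fenofibrate, 10500 to 12700 in Irgm1KO_control and 15000 to 18400 in Irgm1KO_fenofibrate. Lyz2, the most abundant of them, averaged 23180 CPM in WT and 5555 in Irgm1-KO, and the markers went both ways. In Irgm1-KO against WT, Mertk rose (log2 0.82), Adgre1 (log2 -0.67), Lyz2 (log2 -2.06) and Cd14 (log2 -1.02) fell, and 4 were not called. In Irgm1KO_control against WT_control 1 rose and 5 fell, and fenofibrate raised 1 and lowered 5 in WT and raised 2 and lowered 4 in Irgm1KO. The part of these cell markers in the results below was not tested. Markers of neutrophils summed to at most 34.4 CPM in the first experiment (4 of 6 measured) and 4.87 in the second. The first table held 3 of 4 dendritic cell markers, 2 of 4 stromal, 2 of 3 mast cell, 1 of 4 B cell and 0 of 4 T or NK cell markers, so it sets no limit for the last. Those held summed to at most 5.72 CPM for dendritic, 7.75 for stromal, 1.37 for mast and 1.88 for B cells. Stromal markers summed to 2.8 to 7.58 CPM in WT, 0.785 to 1.45 in Irgm1-KO and 6.6 to 7.75 in Irgm_IFNAR-KO. In the second experiment, where all were in the table, markers of dendritic cells summed to at most 5.02 CPM, of stromal cells to 2.70, of mast cells to 0.561, of B cells to 0.355 and of T or NK cells to 0.0313. In bulk RNA, fewer cells of a kind and less RNA per cell cannot be told apart. Whether each replicate came from its own animal is not stated in the labels, and the p-values reflect the spread among libraries, which may be technical in part. Xist, expressed in female cells, ran from 0.00843 to 110.3 CPM in WT_control and from 1.31 to 143 CPM in Irgm1KO_control, so the libraries of these groups did not all come from the same animals.

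Per kb of its longest coding transcript, Samhd1 was the most abundant of the 6 measured genes in all 7 groups, followed by Zbp1, Sting1, Tbk1, Ikbke and Cgas. In WT the levels were 628 ± 85.1 CPM per kb for Samhd1, 226 ± 9.20 for Zbp1, 107.8 ± 1.99 for Sting1, 34.8 ± 2.81 for Tbk1, 26.3 ± 3.07 for Ikbke and 3.67 ± 0.316 for Cgas (SD, n = 4). The libraries of neighbours in this order did not overlap in any group. The closest neighbours were Tbk1 and Ikbke in Irgm1-KO, whose means stood 1.11-fold apart, and Zbp1 and Sting1 in Irgm_IFNAR-KO, 1.14-fold apart. In Irgm_IFNAR-KO, Sting1 stands above Zbp1 when the length of merged exons is used instead, a choice added after seeing the data.

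**Figure D1:**
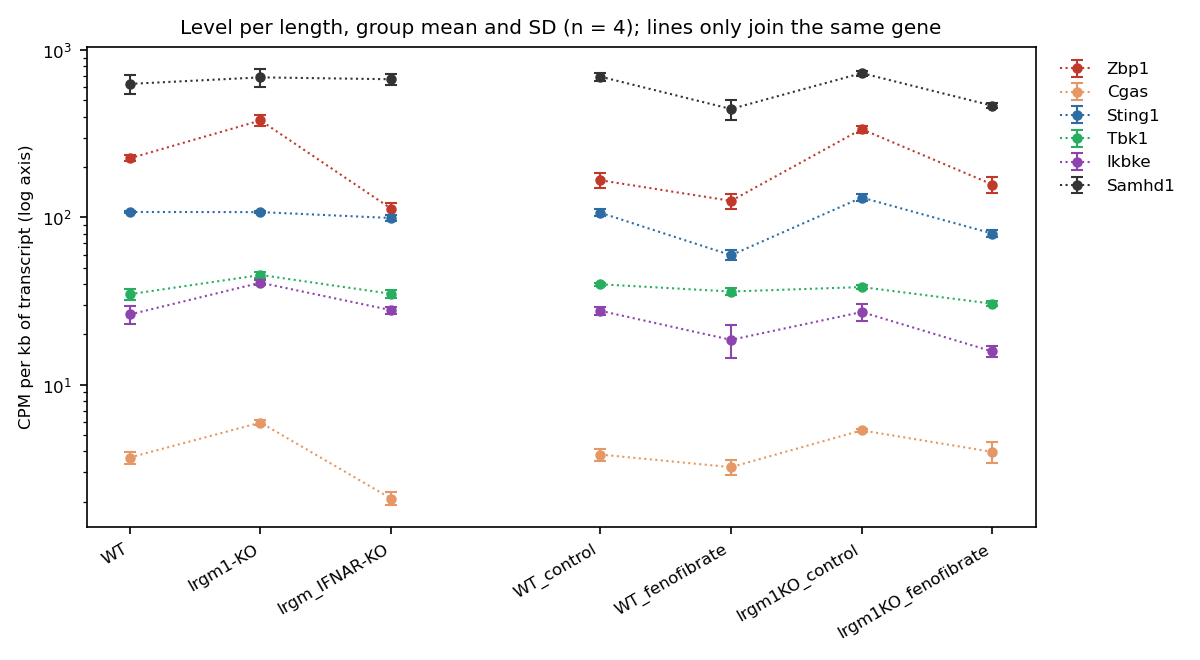
Level of each gene per kb of its longest coding transcript (log axis, CPM per kb; mean and SD of 4 libraries) in the 7 groups, with dotted lines that only join values of the same gene. The order is the same in each group, with Samhd1 highest and Cgas lowest, and Zbp1 comes within 1.14-fold of Sting1 in Irgm_IFNAR-KO.

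Promoter sequence was available in RefSeq (GRCm38.p6) for 5 of the 7 genes, and not for Zbp1 or Sting1. The stretches upstream of the annotated exons are shown for 4 of them. Trex1 is left out because its windows lie wholly or in large part in exons of Atrip. Of the 4 shown, Cgas, Tbk1 and Ikbke rose together in the first experiment while Samhd1 did not. In the second only Cgas rose (log2 0.48), and Tbk1 (log2 -0.05), Ikbke (log2 -0.02) and Samhd1 (log2 0.07) were not called. All 4 lie on the reverse strand, at chr9:78443238-78443487 (Cgas), chr10:121586795-121587044 (Tbk1), chr1:131279607-131279813 (Ikbke) and chr2:157135266-157135346 (Samhd1), and are printed 5′ to 3′. Capitals mark the single match to a motif searched.
Cgas: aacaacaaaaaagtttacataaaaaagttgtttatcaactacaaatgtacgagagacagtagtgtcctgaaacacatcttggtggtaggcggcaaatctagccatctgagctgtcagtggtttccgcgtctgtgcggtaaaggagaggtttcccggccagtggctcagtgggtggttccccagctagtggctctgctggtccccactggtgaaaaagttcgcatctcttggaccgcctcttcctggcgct
Tbk1: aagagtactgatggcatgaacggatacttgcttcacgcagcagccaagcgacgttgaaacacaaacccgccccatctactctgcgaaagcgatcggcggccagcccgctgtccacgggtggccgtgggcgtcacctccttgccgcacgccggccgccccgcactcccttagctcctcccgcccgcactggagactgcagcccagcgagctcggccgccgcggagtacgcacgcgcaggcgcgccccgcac
Ikbke: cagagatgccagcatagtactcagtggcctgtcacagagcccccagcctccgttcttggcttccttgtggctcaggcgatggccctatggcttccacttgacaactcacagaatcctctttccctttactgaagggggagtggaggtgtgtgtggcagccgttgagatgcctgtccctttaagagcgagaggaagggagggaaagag
Samhd1: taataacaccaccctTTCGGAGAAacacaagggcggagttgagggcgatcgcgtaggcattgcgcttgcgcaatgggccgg
The windows searched ran from 250 bases before to 50 bases after each start, on both strands. The core of the interferon-stimulated response element (GAAA, any 2 bases, GAAA) was found in 3.44% of all 32851 windows and the ETS-IRF composite (GGAA, any 2 bases, GAAA) in 2.72%, and neither was found in a window of the 5 genes. The gamma-activated sequence TTCNNNGAA was found in 8.30% of windows and in 1 of the 5 genes, Samhd1, at 235 to 227 bases before the start. The searched letters of these motifs can overlap in part. The Tbk1 stretch had the highest GC content, at 68.4%, against 50.0% in Cgas, 56.0% in Ikbke and 58.0% in Samhd1.

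Cgas (ENSMUSG00000032344) encodes the cytosolic DNA sensor. It was measured at 14.8, 13.2, 15.03 and 16.4 CPM in the 4 WT libraries, at 24.0, 24.3, 23.1 and 24.9 in Irgm1-KO and at 9.07, 8.003, 9.09 and 7.64 in Irgm_IFNAR-KO. The 3 groups did not overlap, and the double mutant was below WT in every library. Cgas was 1.62-fold higher in Irgm1-KO than in WT (log2 fold change 0.69, SE 0.0837, adjusted p 3.5e-05 in edgeR's quasi-likelihood test). It fell 2.85-fold from Irgm1-KO to Irgm_IFNAR-KO (log2 -1.51, SE 0.0855, adjusted p 4.4e-08), to a level below WT (log2 -0.82, SE 0.0848, adjusted p 5.03e-05). In the second experiment Cgas stood at 14.5, 17.3, 15.5 and 14.7 CPM in WT_control and at 13.3, 14.9, 12.2 and 11.7 in WT_fenofibrate. It stood at 21.8, 21.2, 22.1 and 21.4 CPM in Irgm1KO_control and at 18.5, 14.1, 14.2 and 17.5 in Irgm1KO_fenofibrate. The mutant libraries without drug were again the highest, and the drug-treated mutant libraries overlapped with those of WT. The rise with Irgm1 loss was 1.40-fold (log2 0.48, SE 0.0923, adjusted p 0.000322). Fenofibrate lowered Cgas in the mutant by 0.43 on the log2 scale (log2 -0.43, SE 0.0923, adjusted p 0.00114), with 4 of 4 same-numbered pairs lower. In WT the fall was small (log2 -0.25, SE 0.0926, adjusted p 0.0459), again in 4 of 4 pairs, and it lost its call without WT_control replicate 2, 3 or 4 or without WT_fenofibrate replicate 1, 3 or 4 (adjusted p 0.0512 to 0.14). Cgas was higher in Irgm1KO_fenofibrate than in WT_fenofibrate (log2 0.30, SE 0.0926, adjusted p 0.0195), a call lost without WT_fenofibrate replicate 3 or 4 or Irgm1KO_fenofibrate replicate 1 or 4 (adjusted p 0.0587 to 0.0856) and in a fit of these 2 groups alone (adjusted p 0.099). Cgas shares 201 exon bases, 4.90% of its own, with the pseudogene Gm8093 on the opposite strand, which averaged 7.41 CPM in WT, 6.75 in Irgm1-KO and 3.77 in Irgm_IFNAR-KO and 0.841 to 2.10 in the groups of the second experiment. With the use of strand in counting unknown here, reads in the shared stretch cannot be assigned.

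Sting1 (ENSMUSG00000024349) encodes the adaptor STING. In the first experiment it was nearly flat: 243, 246, 253 and 249.5 CPM in WT, 244, 248, 248 and 249.5 in Irgm1-KO, and 221, 231, 222 and 238 in Irgm_IFNAR-KO. WT and Irgm1-KO overlapped fully, while the double-mutant libraries lay below all others. The fold of Irgm1-KO over WT was 0.998 (95% interval of log2 -0.13 to 0.13, adjusted p 0.97). Irgm_IFNAR-KO stood at log2 -0.12 against Irgm1-KO (SE 0.057, adjusted p 0.117) and at log2 -0.12 against WT (adjusted p 0.236), both missed by edgeR's quasi-likelihood test. DESeq2 called both, at log2 -0.14 (adjusted p 0.000191) and -0.12 (adjusted p 0.0038). In the second experiment Sting1 stood at 258, 252, 231 and 239 CPM in WT_control and at 313, 291, 288 and 317 in Irgm1KO_control. With fenofibrate it stood at 150.4, 129.6, 132 and 135 CPM in WT and at 186.5, 195, 174.5 and 180.4 in Irgm1KO. These 4 groups did not overlap. Sting1 was 1.23-fold higher in Irgm1KO_control than in WT_control (log2 0.30, SE 0.0568, adjusted p 0.000271). Fenofibrate lowered it 1.79-fold in WT (log2 -0.84, SE 0.0572, adjusted p 3.24e-07) and 1.64-fold in Irgm1KO (log2 -0.72, SE 0.057, adjusted p 6.95e-08). The fall in WT was the largest among the 6 genes. The difference between these falls was not called (log2 0.13, 95% interval -0.05 to 0.30, adjusted p 0.258). Under the drug, Sting1 stayed 1.35-fold higher in the mutant (log2 0.43, SE 0.0569, adjusted p 5e-05).

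Tbk1 (ENSMUSG00000020115) encodes the kinase that phosphorylates STING and IRF3. It stood at 113, 93.4, 104 and 110.0 CPM in WT, at 141, 138, 129 and 139.7 in Irgm1-KO and at 109, 103, 111 and 99.5 in Irgm_IFNAR-KO. Irgm1-KO stood above the other groups without overlap, and the other groups overlapped with each other. Tbk1 was 1.30-fold higher in Irgm1-KO than in WT (log2 0.38, SE 0.0757, adjusted p 0.00152) and 1.30-fold lower in Irgm_IFNAR-KO than in Irgm1-KO (log2 -0.37, SE 0.0757, adjusted p 0.00161). Between Irgm_IFNAR-KO and WT the log2 difference was 0.01 (95% interval -0.16 to 0.18, adjusted p 0.982). In the drug experiment it stood at 117, 123, 122 and 120.0 CPM in WT_control and at 118, 118, 112.5 and 115 in Irgm1KO_control. The control groups overlapped, and no rise with Irgm1 loss was seen (log2 -0.05, 95% interval -0.14 to 0.04, adjusted p 0.279). With fenofibrate Tbk1 stood at 106, 111, 115 and 104 CPM in WT and at 93.6, 87.6, 93.1 and 94.6 in Irgm1KO, so the treated mutant libraries were the lowest of that experiment. The fall was 1.10-fold in WT (log2 -0.14, SE 0.0413, adjusted p 0.0125) and 1.26-fold in Irgm1KO (log2 -0.33, SE 0.0414, adjusted p 7.25e-06). The fall was larger in the mutant (difference in log2 -0.19, SE 0.0584, adjusted p 0.0238). That difference was not called without WT_fenofibrate replicate 3 (log2 -0.16, adjusted p 0.0555) or Irgm1KO_control replicate 1 (log2 -0.18, adjusted p 0.0508), or with no filter on low counts (adjusted p 0.107). Treated Irgm1KO stood 1.18-fold below treated WT (log2 -0.24, SE 0.0414, adjusted p 0.000405).

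Ikbke (ENSMUSG00000042349) encodes IKK epsilon, the inducible relative of TBK1. It stood at 94.4, 72.8, 82.3 and 92.4 CPM in WT, at 137, 136, 128 and 128 in Irgm1-KO and at 91.7, 89.1, 96.1 and 85.8 in Irgm_IFNAR-KO. As for Tbk1, only Irgm1-KO stood apart from the other groups of the first experiment. Ikbke was 1.55-fold higher in Irgm1-KO than in WT (log2 0.63, SE 0.0864, adjusted p 9.24e-05) and 1.46-fold lower in Irgm_IFNAR-KO than in Irgm1-KO (log2 -0.55, SE 0.0863, adjusted p 0.000263). Against WT the double mutant stood at log2 0.09 (95% interval -0.11 to 0.28, adjusted p 0.689). Among the untreated libraries of the drug experiment it stood at 86.6, 92.0, 96.4 and 84.7 CPM in WT_control and at 96.9, 83.8, 76.8 and 96.3 in Irgm1KO_control, which overlapped (log2 -0.02, 95% interval -0.29 to 0.25, adjusted p 0.887). With fenofibrate it stood at 63.9, 56.4, 76.3 and 44.6 CPM in WT and at 52.0, 55.1, 45.9 and 52.4 in Irgm1KO. Treated libraries lay below untreated ones in both genotypes. The fall was 1.49-fold in WT (log2 -0.58, SE 0.124, adjusted p 0.00197) and 1.72-fold in Irgm1KO (log2 -0.78, SE 0.124, adjusted p 9.05e-05), and the difference between the falls was not called (log2 -0.21, 95% interval -0.59 to 0.17, adjusted p 0.413). Treated Irgm1KO stood at log2 -0.23 against treated WT (SE 0.124, adjusted p 0.165), and at log2 -0.35 (adjusted p 0.0152) without WT_fenofibrate replicate 4. Ikbke shares 65 and 159 exon bases with the antisense genes Gm28913 and Gm28914, so a small part of its reads cannot be assigned without strand.

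Samhd1 (ENSMUSG00000027639) encodes an enzyme that breaks down deoxynucleotides and limits DNA synthesis by viruses. It stood at 2777, 1993, 2570 and 2527 CPM in WT, at 2905, 2953, 2216 and 2722 in Irgm1-KO and at 2782, 2562, 2820 and 2355 in Irgm_IFNAR-KO. The 3 genotypes overlapped. No genotype difference was called in the first experiment (log2 0.13, adjusted p 0.414 for Irgm1-KO against WT, log2 -0.04, adjusted p 0.825 for Irgm_IFNAR-KO against Irgm1-KO, and log2 0.09, adjusted p 0.777 for Irgm_IFNAR-KO against WT). The 95% interval of the first of these values was -0.14 to 0.40. In the drug experiment Samhd1 stood at 2835, 2695, 2849 and 2526 CPM in WT_control and at 2857, 2840, 2753 and 2993 in Irgm1KO_control (log2 0.07, SE 0.0793, adjusted p 0.484). With fenofibrate it stood at 1933, 1612, 1965 and 1475 CPM in WT and at 1854, 1891, 1739 and 1824 in Irgm1KO. Every treated library lay below every control library. The fall was 1.56-fold in WT (log2 -0.64, SE 0.0796, adjusted p 1.96e-05) and 1.57-fold in Irgm1KO (log2 -0.65, SE 0.0797, adjusted p 6.03e-06), with 4 of 4 pairs lower in each. The difference between these falls had a 95% interval of -0.25 to 0.24 on the log2 scale (adjusted p 0.984).

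Zbp1 (ENSMUSG00000027514) encodes a sensor of Z-form nucleic acids that can start RIPK3-dependent cell death. It stood at 422, 452, 459.6 and 461 CPM in WT, at 727, 738, 842 and 714 in Irgm1-KO and at 207, 223, 219 and 249 in Irgm_IFNAR-KO. The groups did not overlap, and every double-mutant library was below every WT library. Zbp1 was 1.68-fold higher in Irgm1-KO than in WT (log2 0.75, SE 0.0799, adjusted p 1.22e-05), 3.37-fold lower in Irgm_IFNAR-KO than in Irgm1-KO (log2 -1.75, SE 0.0818, adjusted p 8.8e-09) and 2.00-fold lower in Irgm_IFNAR-KO than in WT (log2 -1.0, SE 0.0803, adjusted p 6.63e-06). The drug experiment gave 342, 317.5, 374 and 294 CPM in WT_control and at 691, 654, 632 and 705 in Irgm1KO_control. With fenofibrate it stood at 259, 237, 282 and 220.5 CPM in WT and at 320.2, 355, 273.5 and 302 in Irgm1KO. Untreated mutant libraries stood far above the rest, and treated mutant libraries overlapped with untreated WT. Zbp1 was 2.02-fold higher in Irgm1KO_control than in WT_control (log2 1.02, SE 0.0908, adjusted p 1.23e-07). Fenofibrate lowered it 1.33-fold in WT (log2 -0.41, SE 0.0901, adjusted p 0.00217) and 2.14-fold in Irgm1KO (log2 -1.10, SE 0.091, adjusted p 9.77e-08). The fall was larger in the mutant by 0.69 on the log2 scale (log2 -0.69, SE 0.127, adjusted p 0.000743). Under the drug a 1.25-fold difference between the genotypes was left (log2 0.32, SE 0.0901, adjusted p 0.0113), with overlapping libraries.

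Trex1 (ENSMUSG00000049734) encodes the main cytosolic DNA exonuclease. It was not analysed here in the first experiment. In the second it was listed at 0 counts in all 16 libraries, where 3 counts would be 0.0248 to 0.0364 CPM. All 1147 of its exon bases lie within exons of Atrip on the same strand in GENCODE M21. Reads from that stretch cannot be assigned to either gene, and how they were counted is unknown here, so the 0 is no measure of Trex1 expression. Atrip, whose product binds the checkpoint kinase ATR, had 685 to 1146 counts per library there and averaged 8.20 CPM in WT_control, 8.98 in WT_fenofibrate, 9.78 in Irgm1KO_control and 9.72 in Irgm1KO_fenofibrate. In the first experiment Atrip averaged 7.38 CPM in WT, 8.70 in Irgm1-KO and 6.69 in Irgm_IFNAR-KO. It was called higher with Irgm1 loss in the first (log2 0.24, adjusted p 0.0124) and second experiment (log2 0.25, adjusted p 0.000744), and lower in Irgm_IFNAR-KO than in Irgm1-KO (log2 -0.38, adjusted p 0.000567). Whether Trex1 reads had a part in these values was not tested.

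**Figure D2:**
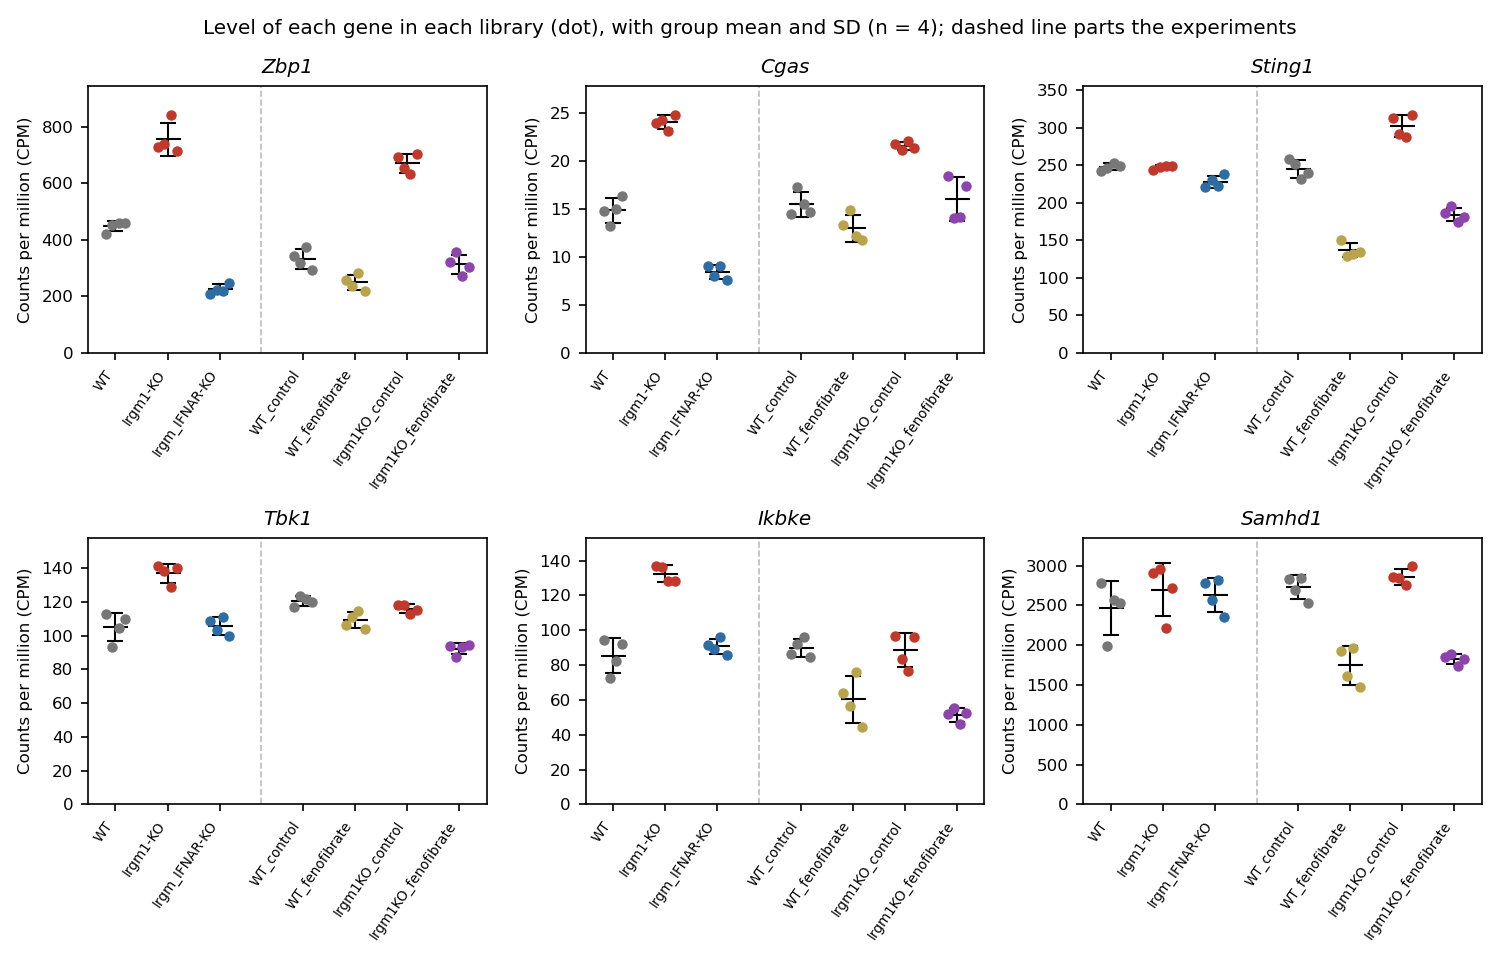
CPM of the 6 measured genes (y axes from 0) in each library (dots) of the 7 groups, with the mean and SD of 4 libraries. Irgm1-KO libraries stand above WT for Zbp1, Cgas, Tbk1 and Ikbke, and fenofibrate libraries stand low for Sting1, Ikbke and Samhd1 in both genotypes.

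Read by comparison, 4 of the 6 tested genes (Cgas, Tbk1, Ikbke and Zbp1) were called higher in Irgm1-KO than in WT, where 19.8% of all tested genes were called higher and 20.7% lower. The median log2 fold change of the 6 was 0.51, against -0.02 over all tested genes. The same 4 genes were called lower in Irgm_IFNAR-KO than in Irgm1-KO, where 21.3% of all tested genes were called lower. These comparisons share the Irgm1-KO libraries, so a library that is high by chance enters both. Against WT, only Cgas and Zbp1 were called lower in Irgm_IFNAR-KO (2 of 6, against 8.22% of all tested genes, where 3.94% were called higher). The 1150 genes behind the 8.22% became 2132 with Xist as a covariate, and the 552 called higher became 2126. Tbk1 and Ikbke stood at the WT level there within intervals that end at log2 0.18 and 0.28. In the second experiment 3 of 6 genes (Cgas, Sting1 and Zbp1) were called higher with Irgm1 loss, against 27.3% of all tested genes (26.1% were called lower). All 6 were called lower with fenofibrate in WT, where 16.9% of all tested genes were called lower, and all 6 in Irgm1KO, against 22.2%. The median log2 change of the 6 was -0.49 in WT and -0.68 in Irgm1KO, and that over all tested genes was 0.02 and 0.01. The falls were called different between genotypes for 2 of 6 genes, Tbk1 and Zbp1, both falling further in the mutant. Of all tested genes, 14.7% were called with an interaction below 0. With fenofibrate in both genotypes, 3 of 6 genes were called higher in the mutant (Cgas, Sting1 and Zbp1, against 18.1%) and 1 lower (Tbk1, against 15.2%). The comparisons of the second experiment share control or treated libraries in the same way. Its fenofibrate and interaction values come from a fit without a block for the replicate number, though the numbers pair libraries within a genotype.

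**Figure D3:**
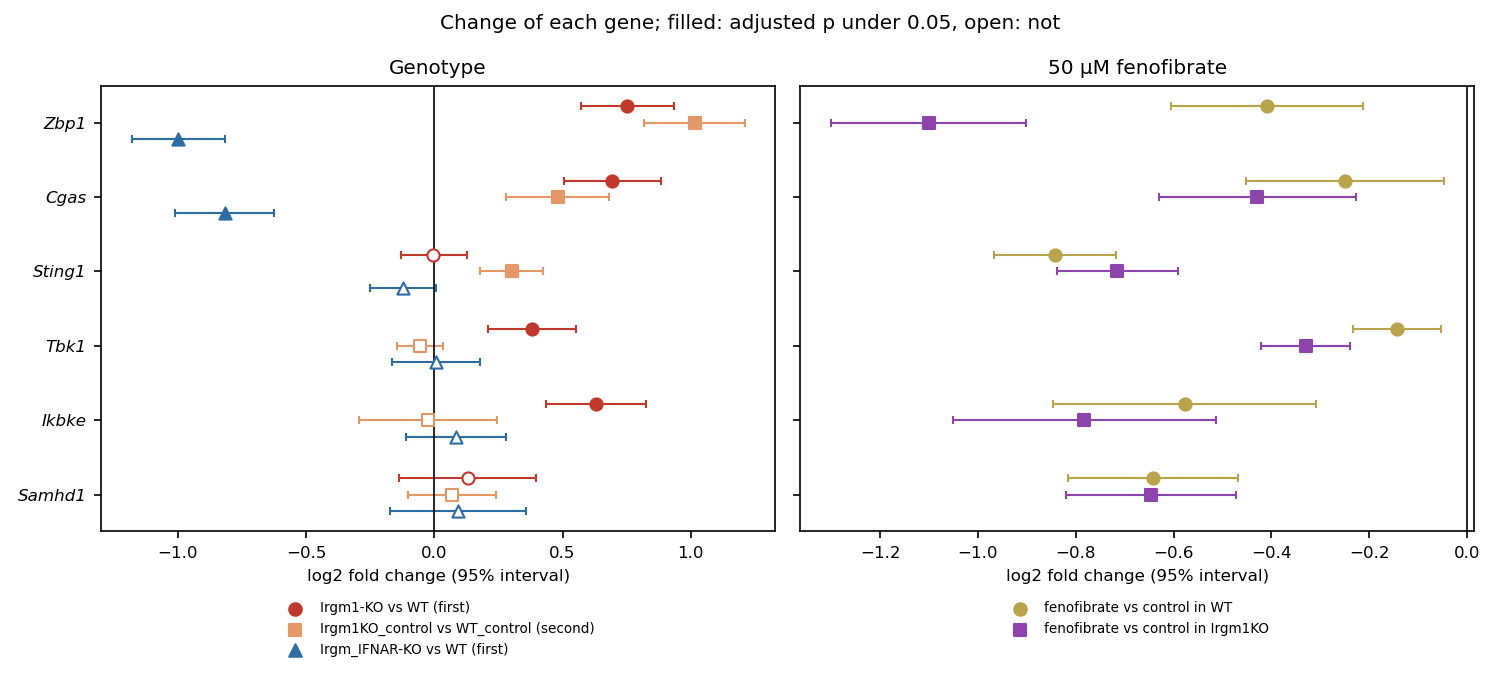
Log2 fold changes with 95% intervals for the 6 tested genes, by genotype (left) and by fenofibrate (right); filled symbols passed the threshold and open symbols did not. All 12 fenofibrate values lie below 0, and for Tbk1 and Ikbke the value of Irgm1 loss is above 0 in the first experiment and near 0 in the second.

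The effect of Irgm1 loss was set against itself in the 2 experiments in a joint fit of both tables, a comparison added after seeing the values. It was called different for 3 of 6 genes, against 6.25% (945) of the 15114 genes tested, a number that became 1829 without Irgm1-KO replicate 3 and 1488 without WT replicate 1. The log2 effect in the first minus that in the second experiment was 0.42 for Tbk1 (SE 0.083, adjusted p 0.00208) and 0.64 for Ikbke (SE 0.158, adjusted p 0.0135). Both kinases were called higher with Irgm1 loss in the first experiment only. The difference was -0.32 for Sting1 (SE 0.0785, adjusted p 0.0113), which rose in the second only. For Cgas (log2 0.19, adjusted p 0.431), Samhd1 (log2 0.04, adjusted p 0.895) and Zbp1 (log2 -0.28, 95% interval -0.54 to -0.03, adjusted p 0.194) it was not called. The experiments also differ in read cycles (100 and 50), depth and, in the second, the control condition of a drug treatment, and these cannot be told apart.

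Genes around the 6 were grouped by role, and counts of these lists are to be read against the shares of all tested genes called with Irgm1 loss: 19.8% higher and 20.7% lower in the first experiment, 27.3% and 26.1% in the second. Among 8 tested cofactors and regulators of cGAS, 2 rose and 0 fell in the first experiment and 3 rose and 1 fell in the second. The largest rise was that of Trim14, which keeps cGAS from degradation (log2 0.79, adjusted p 6.14e-05). It fell in Irgm_IFNAR-KO against Irgm1-KO (log2 -1.25) and with fenofibrate in Irgm1KO (log2 -0.82, adjusted p 7.46e-07), as Cgas did. Of 19 genes of STING traffic, membrane partners and ubiquitin control, 3 rose and 6 fell with Irgm1 loss in the first experiment, and 3 rose and 11 fell in the second. Rises were thus no more frequent than over all genes, while falls were more frequent than the 20.7% and 26.1% over all genes. With Xist as a covariate, 5 rose in the first. Over all tested genes, those called higher there went from 2767 to 4252 with Xist. The 19.8% is thus no measure for list counts with Xist. The matching number called lower with Xist is not given here. Usp18, an interferon-induced isopeptidase that restrains interferon signalling, rose most (log2 2.76 and 2.54) and fell with loss of the receptor (log2 -5.92, adjusted p 1.43e-08). Insig1, a sterol-sensing membrane protein, fell most in the first (log2 -0.74, adjusted p 5.9e-06) and fell in the second (log2 -0.57, adjusted p 2.1e-05). Of 7 genes of cyclic dinucleotide transport and breakdown, 1 rose and 1 fell in the first experiment: Lrrc8c, a subunit of the volume-regulated channel that can pass cGAMP (log2 0.64, adjusted p 0.0187), and Slc19a1, the folate carrier that can import cyclic dinucleotides in human cells (log2 -0.38, adjusted p 0.0354). With Xist as a covariate 2 rose and 2 fell, again in a setting with more genes called higher over all tested. In the second experiment 1 rose and 3 fell, and neither Lrrc8c nor Slc19a1 was called (log2 0.01, adjusted p 0.946, and log2 0.09, adjusted p 0.406).

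Of 12 tested adaptors, regulators and substrates of TBK1, 6 rose and 0 fell in Irgm1-KO, and 4 rose and 3 fell in the second experiment. Tank, an adaptor that binds TBK1 and IKK epsilon, rose most, at log2 1.14 (adjusted p 1.11e-07) and 0.70 (adjusted p 6.81e-07), and it fell with loss of the receptor (log2 -1.01) and with fenofibrate in WT (log2 -0.48, adjusted p 0.000122) and Irgm1KO (log2 -1.13, adjusted p 1.08e-08). Unlike Tbk1 and Ikbke, Tank was called higher with Irgm1 loss in both experiments. With fenofibrate in WT, 5 of the 12 fell and 2 rose, where 16.9% of all tested genes were called lower. In a fit with a block for the replicate number, 8 fell. No share over all genes is given here for that fit, so the 8 cannot be set against one. Irf3, the transcription factor that TBK1 phosphorylates, stood at log2 0.12 in Irgm1-KO against WT (adjusted p 0.319) and rose in the second experiment (log2 0.22, adjusted p 0.00346). It fell with fenofibrate in WT (log2 -0.16, adjusted p 0.0341) and in Irgm1KO (log2 -0.16, adjusted p 0.0279).

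Beside Samhd1, 11 other nucleases and nucleotide or RNA editing enzymes were tested. In Irgm1-KO 5 rose and 1 fell, and in the second experiment 6 rose and 2 fell. The largest rise was listed for Rnaset2b, a lysosomal ribonuclease (log2 1.14, adjusted p 4.44e-06), which is uncertain because reads can be split with its near-identical copy Rnaset2a. Rnaseh2c, a subunit of the nuclear ribonuclease that removes ribonucleotides from DNA, fell (log2 -0.87, adjusted p 0.00883, and in the second -0.43, adjusted p 0.00185). Among 12 other DNA-binding sensors and repair proteins, 2 rose and 2 fell in the first experiment, near the shares over all genes, and 5 rose and 2 fell in the second. With Xist as a covariate the counts of the first were 4 and 5. In that setting 4252 of all tested genes were called higher, in place of 2767. Ifi204, a DNA-binding protein of the interferon-inducible p200 family, rose with Irgm1 loss (log2 0.84 and 0.94), fell with loss of the receptor (log2 -1.97) and fell with fenofibrate in Irgm1KO (log2 -1.03, adjusted p 5.28e-08). Hmgb1, a chromatin protein, fell (log2 -0.62, adjusted p 0.000794, and in the second -0.33, adjusted p 0.000301). Of 6 partners of ZBP1 in cell death, 2 rose and 1 fell in the first experiment and 3 rose and 1 fell in the second. The 2 that rose were 4 with DESeq2 and 5 with Xist as a covariate. The 5 is to be read against the 4252 genes called higher with Xist. No share over all genes is given here for DESeq2. Mlkl, the pore-forming effector of necroptosis, moved as Zbp1 did: up with Irgm1 loss (log2 1.15 and 1.38), down with loss of the receptor (log2 -1.69) and down with fenofibrate in Irgm1KO (log2 -0.78, adjusted p 8.88e-08). In WT its fenofibrate value was log2 0.07 (adjusted p 0.45). Casp6, a caspase that binds this complex, fell in Irgm1-KO (log2 -0.74, adjusted p 0.00213) and in Irgm1KO_control (log2 -0.62, adjusted p 2.95e-08).

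The transcripts made downstream of STING include cytokine genes that many other pathways also switch on. Of 9 listed, 7 passed the filter on low counts in the first experiment and 8 in the second. All 7 tested rose in Irgm1-KO, against 19.8% of all tested genes. The same 7 fell in Irgm_IFNAR-KO against Irgm1-KO, where 21.3% of all tested genes fell. In Irgm1KO_control against WT_control 7 of 8 rose, against 27.3% of all tested genes. A gene with few counts elsewhere can pass the filter through the group where it is high. In the second experiment this held for Ifnb1, with at least 10 counts in every library of Irgm1KO_control only. These counts are thus in part set by the filter. In Irgm_IFNAR-KO against WT, 3 of the 7 were called higher (Ccl5, Tnf and Nfkbia, named after seeing their values) and 2 lower (Irf7 and Ifit1, likewise). Over all tested genes 3.94% were called higher and 8.22% lower there. With Xist as a covariate those 552 and 1150 genes became 2126 and 2132. Ifnb1, the interferon beta gene, had 4, 10, 5 and 7 counts in the WT libraries, 66, 103, 224 and 90 in Irgm1-KO and 10, 12, 13 and 36 in Irgm_IFNAR-KO. Irgm1-KO stood above the rest (log2 4.12 against WT, adjusted p 5.29e-05, and the double mutant at log2 -2.77 against it, adjusted p 0.000346). Between the double mutant and WT it was not called (log2 1.35, adjusted p 0.204). In the drug experiment Ifnb1 had 1 to 7 counts in WT_control and 1 to 4 in WT_fenofibrate, 104 to 238 in Irgm1KO_control and 7 to 19 in Irgm1KO_fenofibrate. It rose with Irgm1 loss (adjusted p 2.99e-08) and fell with fenofibrate in Irgm1KO (log2 -3.49, adjusted p 7.36e-07), while its change in WT, with few counts, was not called (adjusted p 0.499). The genes of cytosolic RNA sensing stood beside those of DNA sensing for comparison. There 8 of 8 rose in Irgm1-KO, with a median log2 change of 0.96, and 8 of 8 fell with loss of the receptor, with a median of -1.73, where the 6 DNA sensing genes had medians of 0.51 and -0.46. Ifih1, which encodes the RNA sensor MDA5, rose most, at log2 1.75 (adjusted p 1.06e-07) and 1.61 (adjusted p 1.11e-08).

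**Figure D4:**
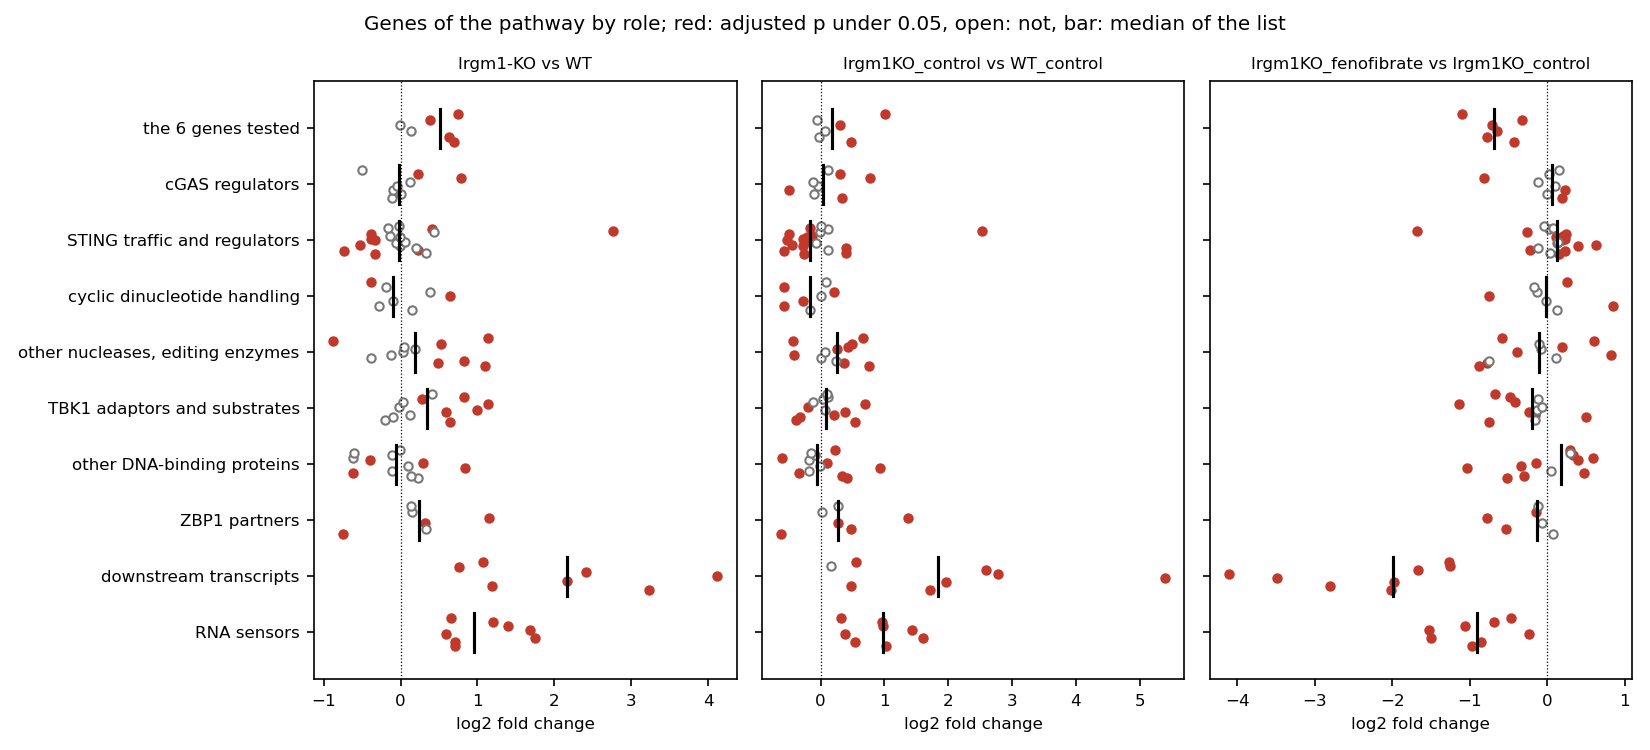
Log2 fold changes of the genes of each role list (dots; red passed the threshold, open did not; black bar, median of the list) in 3 comparisons, each with its own x axis. The 6 genes tested have a median of 0.51 in Irgm1-KO against WT, and the downstream transcripts and the RNA sensors lie further to the right there and to the left with fenofibrate in Irgm1KO.

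The 6 genes followed different patterns across libraries. Over log2 CPM, Tbk1 and Ikbke had a Pearson r of 0.98 across the 12 libraries of the first experiment and 0.85 across the 16 of the second, and Cgas and Zbp1 had 0.97 and 0.87. Sting1 and Samhd1 had -0.27 in the first and 0.91 in the second. These libraries share groups and depth, so the values describe the pattern and carry no test. Among 8900 genes with at least 5 CPM in both tables, the most alike by the lower of the 2 values were Dck, Ch25h and Fam72a for Cgas (0.95, 0.94 and 0.94) and Csk, Ly6a and Pld4 for Sting1 (0.91, 0.89 and 0.89). They were Rufy3, N4bp1 and Mylip for Tbk1 (0.95, 0.94 and 0.93) and Eloa, Cxcl10 and Mxd1 for Ikbke (0.95, 0.94 and 0.94). For Samhd1 they were Irf2, Fgd3 and Sp2 (0.96, 0.96 and 0.95), and for Zbp1 Ifi211, Ifi205 and Slfn1 (0.99 each).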

How the data were processed

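The files deposited by the authors hold raw read counts by Ensembl gene ID, as 1 table for each experiment. The submitters' processing notes name fastp, STAR and DESeq2 and the GRCm39 build. How reads were counted, with which annotation, versions and strand setting, is not given in the sources used here. The first table holds no gene below 10 counts in all of its libraries, a filter applied before deposit. Symbols were found for 99.6% and 91.2% of IDs.

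Tests used edgeR 4.0.16 in R 4.3.3 (filterByExpr, minimum count 10, minimum total 15, TMM scaling, robust quasi-likelihood fit of all groups of an experiment, Benjamini-Hochberg adjustment over 13998 and 15429 tested genes, threshold 0.05). "Called" means past that threshold. The standard error is the log2 change over the square root of F, intervals are 95%, and CPM uses the scaled library size. The test was tried on simulated data with 200 genes changed. Alternatives were DESeq2 1.42.0, its size factors, no filter, log2 Xist as a covariate (both sexes were used), a replicate block, only the groups compared, and leaving out each library.

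The members and lists were chosen with earlier results of these data known. The text names the 7 members, Irgm1, Ifnar1, Irf3 and Ifnb1, the called gene with the largest rise and fall of each list in Irgm1-KO against WT, and the 3 genes most alike to each member. For the joint fit, and for values by length, the choice came after seeing the data. Transcript lengths and overlaps came from GENCODE M21 (GRCm38) and promoter windows from RefSeq, so no coordinates of the files' build are given.

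Libraries with the same number were checked for shared deviations from their group means. Between control and fenofibrate, r was 0.38 to 0.49 in WT and 0.26 to 0.37 in Irgm1KO, each best with its own number, so the numbers pair libraries within a genotype. The main fit held no block for the number, so its fenofibrate and interaction values leave this pairing out.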

Additional observations from a re-analysis of the deposited data

Results flagged for a closer look

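Among the 6 measured genes, the fenofibrate effect differed between genotypes for Tbk1 (log2 -0.19, adjusted p 0.0238 in edgeR's quasi-likelihood test) and Zbp1 (log2 -0.69, adjusted p 0.000743), each falling further in Irgm1KO. The effect of Irgm1 loss differed between the experiments, first minus second, for Sting1 (log2 -0.32), Tbk1 (log2 0.42) and Ikbke (log2 0.64), by the joint fit. In 42 checks of a gene in a group, 0 libraries stood apart from the other 3 by Dixon's test.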

How the results depend on the processing

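Of 508 recomputed values of called member changes, 493 kept their direction and call, 15 kept their direction and lost the call, and 0 changed sign. Of 326 recomputed values that were not called, 5 became called and 24 changed sign while still not called, none of them beyond 0.058 in size on the log2 scale. The sign changes were those of Sting1 in Irgm1-KO against WT (0.016 with DESeq2's size factors, 0.017 with DESeq2, 0.0047 with Xist as a covariate), of Tbk1 in Irgm_IFNAR-KO against WT (-0.034 with Xist), of Samhd1 in the interaction (0.0025 with no filter) and of Samhd1 in treated Irgm1KO against treated WT (-0.021 with Xist). Leaving out each library in turn gave -0.0077 to 0.0049 for Sting1 in Irgm1-KO against WT, -0.044 to 0.039 for Tbk1 in Irgm_IFNAR-KO against WT, -0.12 to 0.013 for Samhd1 in Irgm_IFNAR-KO against Irgm1-KO, -0.070 to 0.037 for Ikbke in Irgm1KO_control against WT_control, -0.0080 to 0.13 for Samhd1 in treated Irgm1KO against treated WT, -0.075 to 0.058 for the Samhd1 interaction and -0.021 to 0.14 for Samhd1 between experiments. The number of members called with an interaction below 0 was 1 in place of 2 with no filter, and ran from 1 to 2 when libraries were left out. The number lower in treated Irgm1KO than in treated WT was 2 in place of 1 with Xist, and ran from 1 to 2 when libraries were left out. With Xist, Cgas lost its call in WT with fenofibrate (adjusted p 0.0556), and Sting1 was called lower in Irgm_IFNAR-KO than in Irgm1-KO (adjusted p 0.0218). With the replicate block, no member's call changed: all 6 fell with fenofibrate in each genotype and 2 were called with a negative interaction, while the Samhd1 interaction was 0.0044. In the first experiment and across genotypes, same-numbered libraries did not deviate together (r -0.48 to 0.52 in the first), so the block there joins only a number, and it left 4 members higher in Irgm1-KO. With Xist, genes called over all tested rose from 2767 to 4252 (higher in Irgm1-KO than in WT), from 3014 to 4640 (higher in Irgm_IFNAR-KO than in Irgm1-KO), and from 552 to 2126 higher and 1150 to 2132 lower in Irgm_IFNAR-KO than in WT. The 552 was 337 to 367 without WT replicate 3 or Irgm_IFNAR-KO replicate 1, 2 or 3. The 2792 higher in treated Irgm1KO than in treated WT were 1782 in a fit of these groups alone. In the joint fit the 369 genes higher were 595 with DESeq2, 737 without WT replicate 1 and 733 without Irgm1-KO replicate 3, which also moved the 576 lower to 1096. The causes were not tested. Of 918 recomputed counts of the role lists, 81 moved by over 1.5 times, 30 of them with Xist. Shares of windows with the 3 motifs were 2.98%, 2.30% and 7.02% over the 250 bases before the start alone. The order of levels was the same under both lengths in 6 of 7 groups. Depth limits Ifnb1 in WT.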
